A study of Homo sapiens with 12 samples.

Results

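The genes described here are 9 that encode secreted proteins of the extracellular matrix: THBS1, THBS2, CCN1, CCN2, CCN5, SPARC, TNC, FN1 and LOX. They were chosen by name as thrombospondin, CCN and matricellular genes, with earlier results of these data known. All 9 were among the 55243 gene symbols that the deposited table lists on 1 row each. RNA-seq gave their levels in 12 libraries of HT1080, a human fibrosarcoma cell line with an NRAS mutation. The 4 groups of 3 libraries were siQ61K with DMSO, siNC with DMSO, siQ61K with poly(dA:dT) and siNC with poly(dA:dT). The siRNA siQ61K targets mutant NRAS, siNC is the control siRNA, and poly(dA:dT) is synthetic double-stranded DNA that sets off DNA sensors of the cytosol. All groups are the same cell line, and the labels used here state neither siRNA dose, nor time after transfection, nor the number of cultures. The series concerns interferon signalling after knockdown of mutant NRAS, and the comparisons below ask how the 9 genes stood after that knockdown, with and without poly(dA:dT).

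Matricellular proteins are secreted into the matrix, where they tune how cells attach, spread and receive growth factors rather than bearing load. Thrombospondin-1 binds the receptor CD47 and integrins and can activate latent TGF-beta. The CCN genes include well-known targets of the YAP/TAZ-TEAD transcription factors, CCN1 and CCN2 above all. Fibronectin (FN1) is a structural fibre protein, tenascin-C (TNC) modulates adhesion to it, SPARC binds collagen, and lysyl oxidase (LOX) cross-links collagen and elastin.

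The check of the siRNA labels, by NRAS level, was met in each library, and the poly(dA:dT) labels had no such check. NRAS stood at 15.5, 15.2 and 19.9 TPM in siQ61K DMSO libraries, against 59.6, 60.6 and 41.4 TPM in siNC DMSO libraries. Under poly(dA:dT) it stood at 20.1, 20.3 and 23.5 TPM in siQ61K libraries, against 43.0, 45.9 and 51.7 TPM in siNC libraries. TPM, the unit of the deposited table, is a relative abundance scaled for transcript length, so levels of different genes can be compared with each other. Of 6 mesenchymal markers, 5 (VIM, CD44, S100A4, ENG and CDH2) reached 1 TPM in each group, and the sixth, NT5E, did not. Their summed level was 5913 to 8460 TPM in siQ61K DMSO, 6247 to 6907 TPM in siNC DMSO, 5049 to 5837 TPM in siQ61K poly(dA:dT) and 6667 to 7267 TPM in siNC poly(dA:dT) libraries. Most of that sum was VIM, and its members moved apart. CD44 had 312, 265 and 498 TPM in siQ61K DMSO against 518, 632 and 675 TPM in siNC DMSO libraries, and averaged 206 ± 17.3 TPM in siQ61K poly(dA:dT) and 632 ± 82.7 TPM in siNC poly(dA:dT) libraries (SD, n = 3 each). CDH2 averaged 64.5 ± 8.56 TPM in siQ61K DMSO and 46.5 ± 5.78 TPM in siNC DMSO libraries (SD, n = 3 each). The part of these shifts in the results below was not tested. The summed markers of endothelium, immune cells, epithelium and muscle stayed between 0 and 1.1 TPM per list and library. Replicate libraries correlated across genes at 0.966 or more, and the loosest pair was siQ61K poly(dA:dT) replicates 1 and 2. Replicate 2 was the lowest of that group for 7 of the 9 genes, and siQ61K DMSO replicate 3 was the highest of its group for 8 of the 9.

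After knockdown without poly(dA:dT), THBS1, CCN1, CCN5 and SPARC rose and FN1 fell, while THBS2, CCN2, TNC and LOX did not pass the test. These 5 calls among 9 genes compare with 31.5% of the 14722 genes tested, 16.6% higher and 14.8% lower. Because the 9 genes were chosen with earlier results of these data known, such comparisons with the background are not independent of the data. The median log2 fold change was -0.03 over the 9 genes and 0.01 over all genes tested. CCN5 passed the filter on low values only through its siQ61K libraries, so its call is not an independent count, and 4 of the other 8 genes were called. Under poly(dA:dT) in both arms, THBS1, CCN5 and SPARC rose and THBS2 and LOX fell in siQ61K cells, again 5 of 9, or 4 of 8 without CCN5. The background there was 21.4%, with 8.71% of genes higher and 12.6% lower, and the median was -0.19 over the 9 genes against -0.07 over all genes. A call means an adjusted p under 0.05 from limma after Benjamini-Hochberg adjustment over all genes tested, on log2(TPM + 1). Since the labels do not state whether replicates were separate cultures, p-values reflect the scatter of these libraries alone, and that scatter may be technical. In bulk RNA, fewer cells with a transcript and less transcript per cell cannot be told apart.

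**Figure D1:**
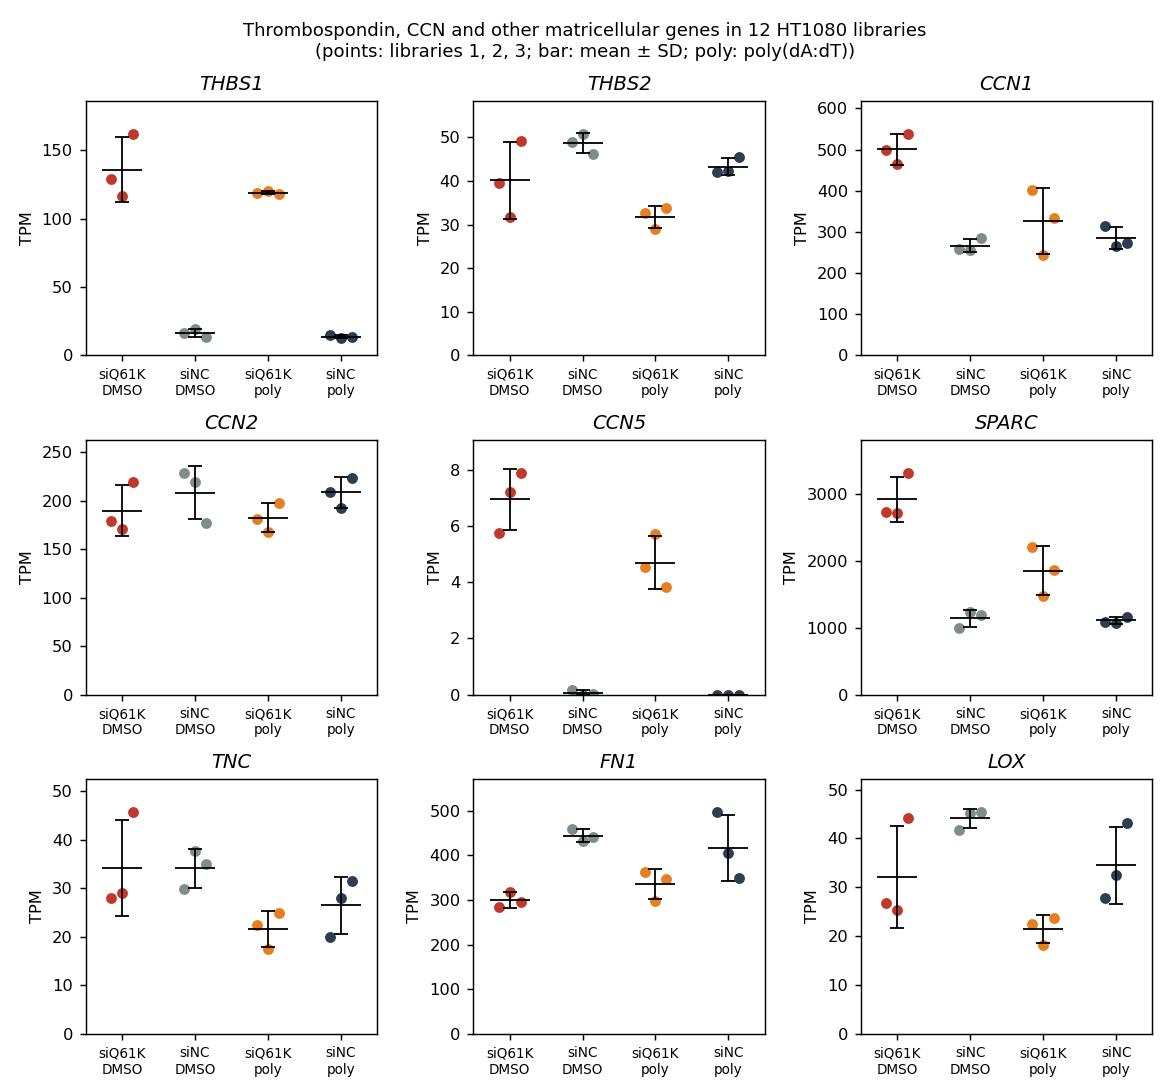
TPM (linear axes from 0) of each of the 9 genes by group, with points for the 12 libraries and bars for group means ± SD, siQ61K left of siNC within DMSO and within poly(dA:dT). The siQ61K libraries of THBS1 sit between 116 and 162 TPM, all above the siNC libraries, whereas the CCN2 groups overlap throughout.

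The thrombospondins are large secreted glycoproteins, and the pair measured here moved in different ways. The bases just before their annotated starts are shown because both hold the 6 letters GGAATG (or CATTCC, the other strand), which TEAD factors recognise, as do CCN2 and SPARC. Each sequence is the 250 bases upstream of the start from RefSeq, build GRCh38.p14, written 5′ to 3′ on the gene's strand, with the TEAD letters in capitals. The regions are chr15:39580829-39581078 (+) for THBS1, chr6:169253847-169254096 (-) for THBS2, chr6:131951373-131951622 (-) for CCN2 and chr5:151686916-151687165 (-) for SPARC.
THBS1: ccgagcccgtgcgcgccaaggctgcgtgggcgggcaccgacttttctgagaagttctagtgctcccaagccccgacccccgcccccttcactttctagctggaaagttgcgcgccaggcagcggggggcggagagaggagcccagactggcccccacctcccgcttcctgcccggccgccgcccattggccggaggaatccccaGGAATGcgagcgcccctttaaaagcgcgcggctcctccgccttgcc
THBS2: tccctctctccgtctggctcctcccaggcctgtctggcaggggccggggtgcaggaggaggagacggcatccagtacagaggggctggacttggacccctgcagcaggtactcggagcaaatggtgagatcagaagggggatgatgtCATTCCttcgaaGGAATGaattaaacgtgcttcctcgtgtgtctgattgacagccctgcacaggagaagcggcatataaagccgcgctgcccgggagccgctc
CCN2: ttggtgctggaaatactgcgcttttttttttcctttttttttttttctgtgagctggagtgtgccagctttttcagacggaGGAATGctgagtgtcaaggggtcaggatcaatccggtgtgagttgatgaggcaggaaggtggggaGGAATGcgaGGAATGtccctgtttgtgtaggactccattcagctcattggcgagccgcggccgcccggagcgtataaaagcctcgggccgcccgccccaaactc
SPARC: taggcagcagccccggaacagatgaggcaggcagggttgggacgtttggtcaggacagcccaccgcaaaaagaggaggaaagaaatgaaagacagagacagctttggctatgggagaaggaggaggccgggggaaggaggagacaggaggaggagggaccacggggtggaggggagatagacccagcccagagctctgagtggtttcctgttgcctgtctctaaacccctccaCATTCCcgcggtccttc
THBS1 holds the letters once, 41 to 46 bases before the start. THBS2 holds them at 86 to 91 bases and, on the opposite strand, at 98 to 103 bases. CCN2 holds 3 copies, at 90 to 95, 99 to 104 and 164 to 169 bases, and SPARC holds 1 on the opposite strand at 12 to 17 bases. The letters were absent from these windows of TNC, FN1 and LOX, and CCN1 and CCN5 were not in the promoter table. Among all 35116 promoters of the same length, 11.9% held the TEAD letters on either strand. Other letters searched on both strands were AP-1 (TGANTCA, 6.57% of promoters, in none of the 7 genes) and SMAD (CAGAC, 38.0%, in THBS1, THBS2, CCN2, TNC and LOX). The TATA box letters (TATAAA, 10.7%) were in THBS2 and CCN2, and the CArG box (1.16%) was in none of the 7. None of the TEAD letters overlapped letters of another kind. A match of letters is a description of the window, and binding was not measured.

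THBS1 had 129, 116 and 162 TPM in siQ61K DMSO libraries, against 16.5, 19.3 and 13.5 TPM in siNC DMSO libraries. With poly(dA:dT) it had 119, 120 and 118 TPM in siQ61K libraries, against 14.6, 12.7 and 13.6 TPM in siNC libraries. Each siQ61K library lay far above each siNC library, and the groups did not overlap. The mean was 135.8 ± 23.5 TPM in siQ61K DMSO and 16.4 ± 2.91 TPM in siNC DMSO (SD, n = 3 each), an 8.27-fold difference with a log2 fold change of 2.97 (SE 0.14, limma adjusted p = 7.06e-08). In poly(dA:dT) the means were 119.0 ± 1.10 TPM in siQ61K and 13.7 ± 0.943 TPM in siNC (SD, n = 3 each), an 8.71-fold difference with a log2 fold change of 3.04 (SE 0.14, limma adjusted p = 3.77e-08). By exact two-sided permutation both differences had p = 0.1, and 3 libraries against 3 allow no smaller value. This placed THBS1 above THBS2 in level in siQ61K cells and below it in siNC cells, with no overlap of the 2 genes in any group. The poly(dA:dT) response of THBS1 was -0.18 (95% interval -0.49 to 0.14) in siQ61K cells and -0.24 (-0.55 to 0.07) in siNC cells on the log2 scale, and neither was called. THBS1 shares 448 exonic bases with FSIP1 on the other strand in the GENCODE 29 annotation, and the library kit does not mark strand. FSIP1 stood at 0.645, 0.581 and 7.04 TPM in siQ61K DMSO libraries, against 0.281, 0.378 and 0.108 TPM in siNC DMSO libraries, a small fraction of the THBS1 level in each.

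THBS2, the closest paralogue of THBS1, had 39.5, 31.7 and 49.3 TPM in siQ61K DMSO libraries, against 48.9, 50.8 and 46.2 TPM in siNC DMSO libraries. These groups overlapped through siQ61K DMSO replicate 3, and the log2 fold change of -0.29 (95% interval -0.60 to 0.01, limma adjusted p = 0.135) was not called. Without that library it was -0.45 (limma adjusted p = 0.0197), and without siQ61K DMSO replicate 2 it was -0.14 (limma adjusted p = 0.485). A correction for GC content and length gave -0.45 (limma adjusted p = 0.00477), and 5 of the 24 processing alternatives gave a call. Under poly(dA:dT) THBS2 had 32.6, 28.99 and 33.8 TPM in siQ61K libraries, against 42.0, 42.4 and 45.5 TPM in siNC libraries, with no overlap. It fell there by 26.6% of the siNC mean, with a log2 fold change of -0.44 (SE 0.14, limma adjusted p = 0.0425). That call was lost when any library other than siQ61K DMSO replicates 2 and 3 and siNC DMSO replicate 3 was left out, with log2 fold changes of -0.48 to -0.37 over all single omissions and an adjusted p of up to 0.138. The GC and length correction gave -0.29 (limma adjusted p = 0.0406). In siQ61K cells the poly(dA:dT) response of THBS2 was -0.31 and was not called (limma adjusted p = 0.125), with single omissions from -0.46 without siQ61K DMSO replicate 2 (limma adjusted p = 0.0291), the 1 alternative of 24 that gave a call, to -0.15 without replicate 3 of that group (limma adjusted p = 0.415).

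The CCN genes encode small secreted proteins that bind integrins, and their 3 members here had 3 different patterns. CCN1 (CYR61), which promotes adhesion and migration, had 500, 464 and 538 TPM in siQ61K DMSO libraries, against 258, 257 and 285 TPM in siNC DMSO libraries. Its poly(dA:dT) values were 401, 244 and 334 TPM in siQ61K libraries, against 315, 265 and 274 TPM in siNC libraries. The DMSO groups were apart, the poly(dA:dT) groups overlapped, and siQ61K replicate 2 was the lowest of those 6 libraries. CCN1 rose 1.88-fold after knockdown in DMSO (log2 fold change 0.91, SE 0.15, limma adjusted p = 0.000763). With poly(dA:dT) the log2 fold change was 0.17 (95% interval -0.15 to 0.49) and was not called. Single omissions gave 0.37 without siQ61K poly(dA:dT) replicate 2 (limma adjusted p = 0.0583) and 0.01 without replicate 1 of that group (limma adjusted p = 0.972).

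CCN2 (CTGF), a profibrotic relative of CCN1, had 179, 171 and 220 TPM in siQ61K DMSO libraries, against 229, 220 and 177 TPM in siNC DMSO libraries. Its poly(dA:dT) values were 181, 168 and 198 TPM in siQ61K libraries, against 209, 193 and 224 TPM in siNC libraries. The groups overlapped in both. Log2 fold changes were -0.13 (95% interval -0.40 to 0.14) in DMSO and -0.19 (95% interval -0.46 to 0.08) in poly(dA:dT), so a rise of the size seen for CCN1 in DMSO lay outside both intervals.

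CCN5 (WISP2), a CCN protein that lacks the C-terminal domain of its relatives, was close to the floor in control cells. It had 5.77, 7.21 and 7.89 TPM in siQ61K DMSO libraries, against 0.171, 0 and 0.0290 TPM in siNC DMSO libraries. Under poly(dA:dT) it had 4.55, 5.73 and 3.85 TPM in siQ61K libraries and was listed at 0 in all 3 siNC libraries. Each siQ61K library was above each siNC library. CCN5 rose in DMSO with a log2 fold change of 2.89 (SE 0.21, limma adjusted p = 2.35e-06) on the log2(TPM + 1) scale, which understates the change of a gene this low and moved between 1.24 and 5.53 with pseudocounts of 5 and 0.1. It was also called with poly(dA:dT) (limma adjusted p = 4.73e-06), and no fold is given against values of 0. In siQ61K cells CCN5 averaged 4.71 ± 0.950 TPM with poly(dA:dT) and 6.96 ± 1.08 TPM with DMSO (SD, n = 3 each). Those libraries did not overlap, and the log2 fold change of -0.48 was not called (95% interval -0.93 to -0.03, limma adjusted p = 0.105).

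SPARC, a collagen-binding glycoprotein, was the most abundant of the 9 and ranked 98 of 14722 genes by mean TPM. It had 2735, 2709 and 3308 TPM in siQ61K DMSO libraries, against 995, 1238 and 1184 TPM in siNC DMSO libraries. Its poly(dA:dT) values were 2207, 1480 and 1868 TPM in siQ61K libraries, against 1091, 1074 and 1165 TPM in siNC libraries. The siQ61K libraries were above the siNC libraries in both, by a smaller margin with poly(dA:dT). SPARC rose 2.56-fold in DMSO (log2 fold change 1.36, SE 0.14, limma adjusted p = 3.1e-05) and, under poly(dA:dT), 1.67-fold (0.72 on the log2 scale, SE 0.14, limma adjusted p = 0.00289). The antisense transcript CLMAT3 shares 381 exonic bases with SPARC, and reads of the pair cannot be separated without strand. CLMAT3 was listed at 0.054 ± 0.047 TPM in siQ61K DMSO and 0.181 ± 0.112 TPM in siNC DMSO libraries (SD, n = 3 each), a small fraction of the SPARC level in each.

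TNC, an adhesion-modulating hexamer, had 28.0, 28.9 and 45.6 TPM in siQ61K DMSO libraries, against 29.7, 37.6 and 34.9 TPM in siNC DMSO libraries. Its poly(dA:dT) values were 22.3, 17.5 and 24.9 TPM in siQ61K libraries, against 20.0, 27.9 and 31.4 TPM in siNC libraries. The siQ61K and siNC groups overlapped in both. The log2 fold change of knockdown was -0.03 (95% interval -0.48 to 0.43) in DMSO and -0.27 (95% interval -0.73 to 0.18) in poly(dA:dT), where single omissions gave -0.46 to -0.14.

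FN1, the fibre protein on which many integrins pull, had 284, 318 and 296 TPM in siQ61K DMSO libraries, against 459, 432 and 440 TPM in siNC DMSO libraries. Cells given poly(dA:dT) had 362, 298 and 348 TPM in siQ61K libraries, against 496, 404 and 349 TPM in siNC libraries. The DMSO groups were apart and the poly(dA:dT) groups overlapped. FN1 fell by 32.6% of the siNC mean in DMSO (log2 fold change -0.57, SE 0.12, limma adjusted p = 0.00386). The transcript used for its GC content held 42.2% GC over 9171 bases, and once each library was corrected for GC and transcript length the difference was -0.41 (limma adjusted p = 0.118). Under poly(dA:dT) the log2 fold change was -0.30 (95% interval -0.56 to -0.04, limma adjusted p = 0.0984), and it was not called. Single omissions gave -0.42 without siNC poly(dA:dT) replicate 3 (limma adjusted p = 0.0344), the 1 alternative of 24 with a call, to -0.16 without replicate 1 of that group (limma adjusted p = 0.356).

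LOX, the cross-linking enzyme, had 26.7, 25.4 and 44.2 TPM in siQ61K DMSO libraries, against 41.8, 45.2 and 45.3 TPM in siNC DMSO libraries. Cells given poly(dA:dT) had 22.5, 18.3 and 23.7 TPM in siQ61K libraries, against 27.8, 32.5 and 43.1 TPM in siNC libraries. The DMSO groups overlapped only through siQ61K DMSO replicate 3. In DMSO the log2 fold change of -0.49 (95% interval -0.93 to -0.05, limma adjusted p = 0.0854) was not called, and single omissions gave -0.74 without siQ61K DMSO replicate 3 (limma adjusted p = 0.00895) to -0.35 without replicate 2 of that group (limma adjusted p = 0.271). The GC and length correction gave -0.22 (limma adjusted p = 0.262). Given poly(dA:dT), LOX fell by 37.7% of the siNC mean (log2 fold change -0.64, SE 0.20, limma adjusted p = 0.0396). This call was lost without siNC poly(dA:dT) replicate 2 or 3, siQ61K poly(dA:dT) replicate 2 or 3, or siNC DMSO replicate 2, with a log2 fold change down to -0.47 and an adjusted p of up to 0.149. LOX shares 138 exonic bases with SRFBP1 on the other strand. SRFBP1 averaged 6.96 TPM in siQ61K DMSO, 9.46 TPM in siNC DMSO, 8.46 TPM in siQ61K poly(dA:dT) and 7.02 TPM in siNC poly(dA:dT) libraries. The part of this overlap in the LOX values was not tested.

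**Figure D2:**
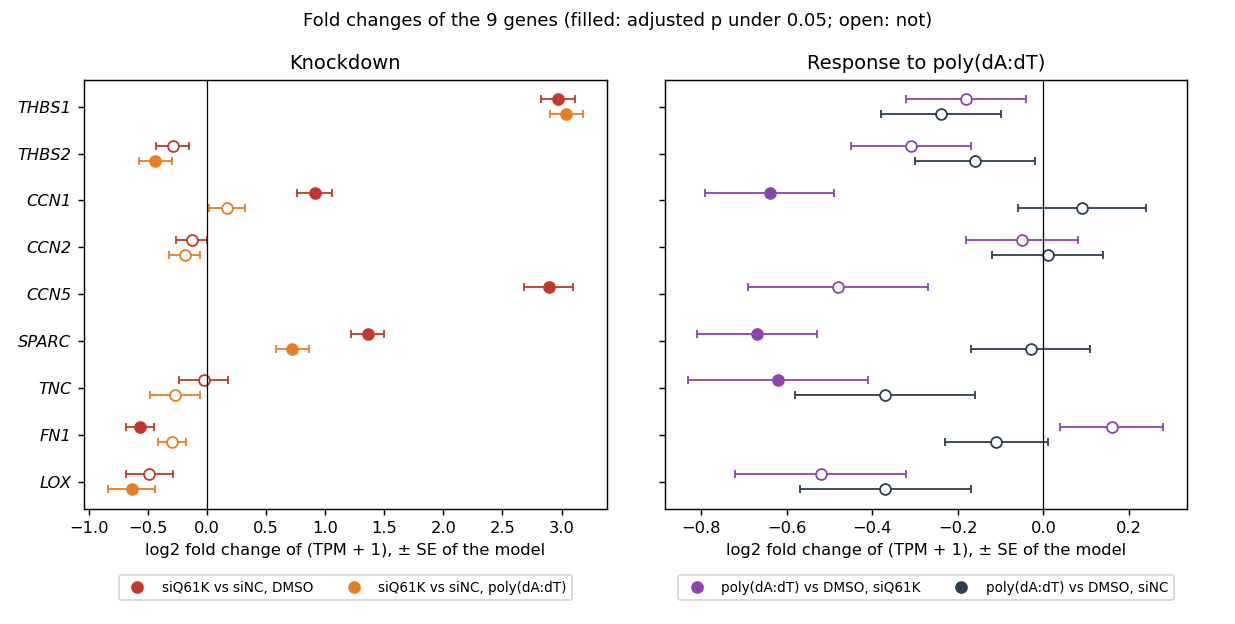
Log2 fold change of TPM + 1 (x axis) with the standard error of the model for each gene, for siQ61K against siNC on the left and poly(dA:dT) against DMSO on the right, filled where the limma adjusted p was under 0.05. THBS1 lies near 3 in both knockdown comparisons, CCN1 and SPARC lie further left in siQ61K than in siNC cells on the right, and CCN5 has no point where siNC poly(dA:dT) libraries, all listed at 0, enter.

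Poly(dA:dT) in siQ61K cells went with lower CCN1, SPARC and TNC, and in siNC cells with no called change. In siQ61K cells 3 of the 9 genes were called, all lower, where 25.2% of all genes were called, 6.92% higher and 18.3% lower. The median log2 fold change there was -0.48 over the 9 genes against -0.15 over all genes. Median-of-ratios scaling levels the libraries by design, and under it the all-gene median was -0.01. That value is not comparable with the -0.48, which was taken without the scaling. After the GC and length correction the falls were -0.52 for CCN1, -0.54 for SPARC, -0.56 for LOX, -0.19 for CCN5 and -0.11 for TNC. The other values were 0.04 for THBS1, 0.06 for THBS2, 0.11 for CCN2 and 0.29 for FN1. This correction also levels the libraries, and the all-gene median was then 0.00. In siNC cells 0 of the 9 passed limma, beside 0.122% of all genes, 0.0747% higher and 0.0475% lower, and none of the 9 had an unadjusted p under 0.05. The median was -0.11 over the 9 genes and -0.07 over all.

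CCN1 fell by 34.8% of the DMSO mean with poly(dA:dT) in siQ61K cells, to 326 ± 79.0 TPM against 500 ± 37.0 TPM with DMSO (SD, n = 3 each, log2 fold change -0.64, limma adjusted p = 0.01). In siNC cells it averaged 285 ± 27.0 TPM with poly(dA:dT) and 267 ± 15.7 TPM with DMSO (SD, n = 3 each, log2 fold change 0.09, limma adjusted p = 0.807). SPARC fell by 36.5% of the DMSO mean in siQ61K cells, to 1852 ± 364 TPM with poly(dA:dT) against 2918 ± 339 TPM with DMSO (SD, n = 3 each, log2 fold change -0.67, limma adjusted p = 0.00661). In siNC cells SPARC averaged 1110 ± 48.5 TPM with poly(dA:dT) and 1139 ± 128 TPM with DMSO (SD, n = 3 each, log2 fold change -0.03, limma adjusted p = 0.937). Thus the groups were apart for both genes in siQ61K cells and overlapped in siNC cells. Both falls stayed called without any single library. With siQ61K poly(dA:dT) replicate 2 and siQ61K DMSO replicate 3 both left out they were -0.39 for CCN1 (limma adjusted p = 0.0958) and -0.42 for SPARC (limma adjusted p = 0.0831). Those libraries held the lowest poly(dA:dT) and the highest DMSO value of both genes and were chosen after seeing the data. Smaller falls were therefore built into that choice, and it cannot decide whether the falls hold.

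TNC fell by 36.9% of the DMSO mean with poly(dA:dT) in siQ61K cells (log2 fold change -0.62, SE 0.21, limma adjusted p = 0.0462), with no overlap between the groups. The call was lost when any library other than siQ61K DMSO replicate 1 or 2 or siNC poly(dA:dT) replicate 1 or 3 was left out, with values down to -0.40 (limma adjusted p = 0.177) without siQ61K DMSO replicate 3. TNC had the joint highest GC content of the 9, 54.0%, and the GC and length correction gave -0.11 (limma adjusted p = 0.703). LOX, with the lowest GC content at 39.6%, was -0.52 and not called (limma adjusted p = 0.0778), and after the correction it was -0.56 (limma adjusted p = 0.0304). The responses of CCN2 and FN1 in siQ61K cells were -0.05 (95% interval -0.32 to 0.22) and 0.16 (95% interval -0.10 to 0.43). In siNC cells the uncalled responses on the log2 scale were -0.37 for both TNC and LOX, -0.16 for THBS2, -0.11 for FN1 and 0.01 for CCN2.

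The difference between the poly(dA:dT) responses, siQ61K minus siNC, was called for CCN1 and SPARC and for none of the other 7, against 18.1% of all genes, 6.0% higher and 12.1% lower. It was -0.73 on the log2 scale for CCN1 (SE 0.21, limma adjusted p = 0.032) and -0.64 for SPARC (SE 0.20, limma adjusted p = 0.0409). The median was -0.15 over the 9 genes and -0.06 over all genes. For CCN1 the call was lost without siQ61K DMSO replicate 1 or 3, siNC DMSO replicate 1 or 2, siQ61K poly(dA:dT) replicate 2 or 3, or siNC poly(dA:dT) replicate 1, with values of -0.77 to -0.54 and an adjusted p of up to 0.0785. For SPARC it was lost without any library other than siQ61K DMSO replicate 2, siNC DMSO replicate 3 or siQ61K poly(dA:dT) replicate 1, with values of -0.70 to -0.48 and an adjusted p of up to 0.109. Corrected for GC and length, the differences were -0.63 for CCN1 (limma adjusted p = 0.0898) and -0.62 for SPARC (limma adjusted p = 0.0604). For THBS1 the difference was 0.06 (95% interval -0.38 to 0.50, limma adjusted p = 0.86).

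The order of levels differed between groups. In siQ61K DMSO cells it ran SPARC, CCN1, FN1, CCN2, THBS1, then THBS2, TNC and LOX, whose neighbours overlapped, and CCN5 last. In siNC DMSO cells it ran SPARC, FN1, CCN1, CCN2, THBS2, LOX, TNC, THBS1 and CCN5, with no overlap between neighbours. In siQ61K poly(dA:dT) cells FN1 and CCN1 overlapped behind SPARC, followed by CCN2, THBS1, THBS2, then TNC and LOX, which overlapped, and CCN5. In siNC poly(dA:dT) cells the order was SPARC, FN1, CCN1, CCN2, then THBS2, LOX and TNC, whose neighbours overlapped, then THBS1 and CCN5.

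Relatives of the 9 genes are given by family, with the 9 genes counted where they belong, beside the backgrounds above. In the thrombospondin family 4 of 5 genes were tested, and 2 rose after knockdown in DMSO, THBS1 and THBS3 (1.08 on the log2 scale, limma adjusted p = 0.00587). THBS3 was 0.41 with poly(dA:dT) and not called. In the CCN family 4 of 6 genes were tested, and 2 rose in DMSO, CCN1 and CCN5. Since CCN5 passed the filter on low values only through its siQ61K libraries, its call among the 2 is not an independent count. CCN3 (NOV) was 0.26 in DMSO and not called, and rose by 0.62 with poly(dA:dT) (limma adjusted p = 0.0393). In the SPARC family 4 of 8 genes were tested and 2 rose in DMSO, SPARC and FSTL1, a secreted follistatin-like protein (0.61, limma adjusted p = 0.0133). With poly(dA:dT) 2 rose and 1 fell. The gene that fell was SMOC1 (-1.07), named after its values were seen, which was -0.90 and not called in DMSO. After the GC and length correction 3 rose and 1 fell in the SPARC family in DMSO. With poly(dA:dT) 3 rose and 0 fell after the correction, so the call of SMOC1 was lost there.

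Among 7 tested tenascins and other matricellular genes, 3 rose and 1 fell after knockdown in DMSO. The secreted protease HTRA1 had 131, 133 and 138 TPM in siQ61K DMSO libraries, against 79.8, 75.0 and 57.1 TPM in siNC DMSO libraries (log2 fold change 0.93, limma adjusted p = 0.000145). TGFBI, an adhesion protein induced by TGF-beta, rose by 0.67 on the log2 scale in DMSO (limma adjusted p = 0.000224) and by 0.99 with poly(dA:dT) (limma adjusted p = 1.02e-05). After the GC and length correction 3 rose and 0 fell in DMSO, with a median of 0.16 in place of 0.44. Osteopontin (SPP1), whose call was lost with that correction, fell by 0.49 in DMSO (limma adjusted p = 0.0411) and its poly(dA:dT) responses differed by 0.75, siQ61K minus siNC (limma adjusted p = 0.0447). The difference of responses was also called for none of the 7 genes after the correction.

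The lysyl oxidases and the proteases that activate them included 6 tested genes, of which 4 rose and none fell after knockdown in DMSO, with a median of 0.56. LOX itself was not among the 4. BMP1, the protease that processes LOX and procollagen, had 80.7, 76.2 and 102 TPM in siQ61K DMSO libraries, against 25.1, 31.6 and 34.5 TPM in siNC DMSO libraries (log2 fold change 1.48, limma adjusted p = 0.000151). LOXL2 had 355, 318 and 451 TPM in siQ61K DMSO libraries, against 185, 254 and 276 TPM in siNC DMSO libraries (log2 fold change 0.65, limma adjusted p = 0.0285). With poly(dA:dT) 0 rose and 1 fell, and the responses differed by -0.94 for BMP1 (limma adjusted p = 0.0307) and -0.96 for LOXL2 (limma adjusted p = 0.0395). After the GC and length correction 1 rose and 0 fell in DMSO (median 0.12), and 3 rose and 1 fell with poly(dA:dT) (median 0.25), so the contrast between the conditions was not kept. The difference of responses was then called for none of the 6 genes.

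Of 13 tested receptors of these proteins, 5 rose and 4 fell after knockdown in DMSO, and 3 rose and 5 fell with poly(dA:dT). After the GC and length correction 5 rose and 4 fell in both. The integrin beta chain ITGB1, shared by most fibronectin and CCN receptors, had 277, 262 and 347 TPM in siQ61K DMSO libraries, against 915, 953 and 769 TPM in siNC DMSO libraries (log2 fold change -1.57, limma adjusted p = 7.18e-06). ITGB3 also fell (-1.24, limma adjusted p = 0.00647), whereas ITGA3 (1.05, limma adjusted p = 0.000598) and LRP1 (0.92, limma adjusted p = 0.000415) rose. With poly(dA:dT) in both arms ITGB1 (-1.23, limma adjusted p = 3.37e-05) and ITGB3 (-1.77, limma adjusted p = 0.00102) fell as well. ITGA3 (0.13, limma adjusted p = 0.628) and LRP1 (-0.001, limma adjusted p = 0.997) were not called there. CD47, the thrombospondin-1 receptor, had 86.6, 98.3 and 116 TPM in siQ61K cells with poly(dA:dT), against 58.7, 53.6 and 56.7 TPM in siQ61K cells with DMSO. In siNC cells CD47 stood at 54.5, 49.6 and 52.3 TPM with poly(dA:dT), against 64.2, 65.9 and 50.7 TPM with DMSO. The poly(dA:dT) responses of CD47 differed by 1.01 (SE 0.18, limma adjusted p = 0.00822). After the GC and length correction such a difference was called for none of the 13 receptors, CD47 included.

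The YAP/TEAD targets, a list that includes CCN1 and CCN2, had 19 tested genes, of which 10 rose and 0 fell after knockdown in DMSO, with a median of 0.52. With poly(dA:dT) 5 rose and 1 fell, with a median of 0.17. After the GC and length correction 9 rose and 0 fell in DMSO (median 0.35), and 7 rose and 2 fell with poly(dA:dT) (median 0.30). TGFB2, a ligand in that list, had 28.1, 34.3 and 41.1 TPM in siQ61K DMSO libraries, against 8.63, 11.2 and 7.38 TPM in siNC DMSO libraries (log2 fold change 1.82, limma adjusted p = 2.12e-05). ANKRD1, a nuclear ankyrin-repeat protein, rose by 1.37 (limma adjusted p = 9.27e-06). FJX1 rose by 1.27 (limma adjusted p = 5.13e-05), and its poly(dA:dT) responses differed by -0.84 (limma adjusted p = 0.0166). Of 16 tested components of the YAP/TEAD pathway 3 rose and 2 fell in DMSO, among them WWTR1, which encodes TAZ (-0.90, limma adjusted p = 0.000573), and VGLL4, a TEAD cofactor (0.86, limma adjusted p = 0.00208). The kinase gene STK3 fell (-0.93, limma adjusted p = 0.00281) and the cofactor gene VGLL3 rose (0.63, limma adjusted p = 0.0472). VGLL3 passed the filter on low values only through its siQ61K libraries, so its call among the 3 is not an independent count. The poly(dA:dT) responses differed for TEAD4 (-0.89, limma adjusted p = 0.024) and VGLL4 (-0.82, limma adjusted p = 0.0311). After the GC and length correction no gene among the YAP/TEAD targets or pathway components was called for this difference.

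Of 15 tested TGF-beta/SMAD targets, 7 rose and 3 fell after knockdown in DMSO, with a median of 0.47 that was 0.21 after the GC and length correction. COL1A1, a collagen I chain, had 11, 10.5 and 11.7 TPM in siQ61K DMSO libraries, against 1.44, 4.198 and 2.38 TPM in siNC DMSO libraries (log2 fold change 1.78, limma adjusted p = 0.00519). The inhibitor of differentiation ID1 had 151, 144 and 129 TPM in siQ61K DMSO libraries, against 469, 496 and 419 TPM in siNC DMSO libraries (log2 fold change -1.70, limma adjusted p = 1.39e-06). ID3, a relative of ID1, fell by 0.75 on the log2 scale (limma adjusted p = 0.00314), and TAGLN, an actin-binding protein, rose by 1.62 (limma adjusted p = 6.94e-05). PMEPA1, a feedback inhibitor of TGF-beta signalling, rose by 1.35 in DMSO (limma adjusted p = 0.00598), and its poly(dA:dT) responses differed by -1.66 (limma adjusted p = 0.0243). With poly(dA:dT) in both arms COL1A1 (0.38, limma adjusted p = 0.545) and PMEPA1 (-0.31, limma adjusted p = 0.52) were not called. TAGLN rose there (0.57, limma adjusted p = 0.0452), and ID1 (-2.05, limma adjusted p = 1.31e-07) and ID3 (-0.64, limma adjusted p = 0.0101) fell. Of 8 genes for TGF-beta ligands, receptors and latency proteins, 2 rose and 3 fell in DMSO and 2 rose and 5 fell with poly(dA:dT), including LTBP1, which anchors latent TGF-beta in the matrix (-1.13 in DMSO, limma adjusted p = 0.000391). The GC and length correction gave 2 higher and 5 lower in both conditions, with medians of -0.30 in DMSO and -0.33 with poly(dA:dT). TGFB3 rose in DMSO (1.24, limma adjusted p = 0.000703) and the receptor gene TGFBR2 fell (-0.95, limma adjusted p = 0.000456). The poly(dA:dT) responses differed for LTBP4 (-0.98, limma adjusted p = 0.0106) and for the ligand gene TGFB1 (-0.77, limma adjusted p = 0.0123), and for TAGLN among the targets (-1.05, limma adjusted p = 0.0202). After the GC and length correction no gene in any of the family, receptor and pathway lists was called for the difference of responses.

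**Figure D3:**
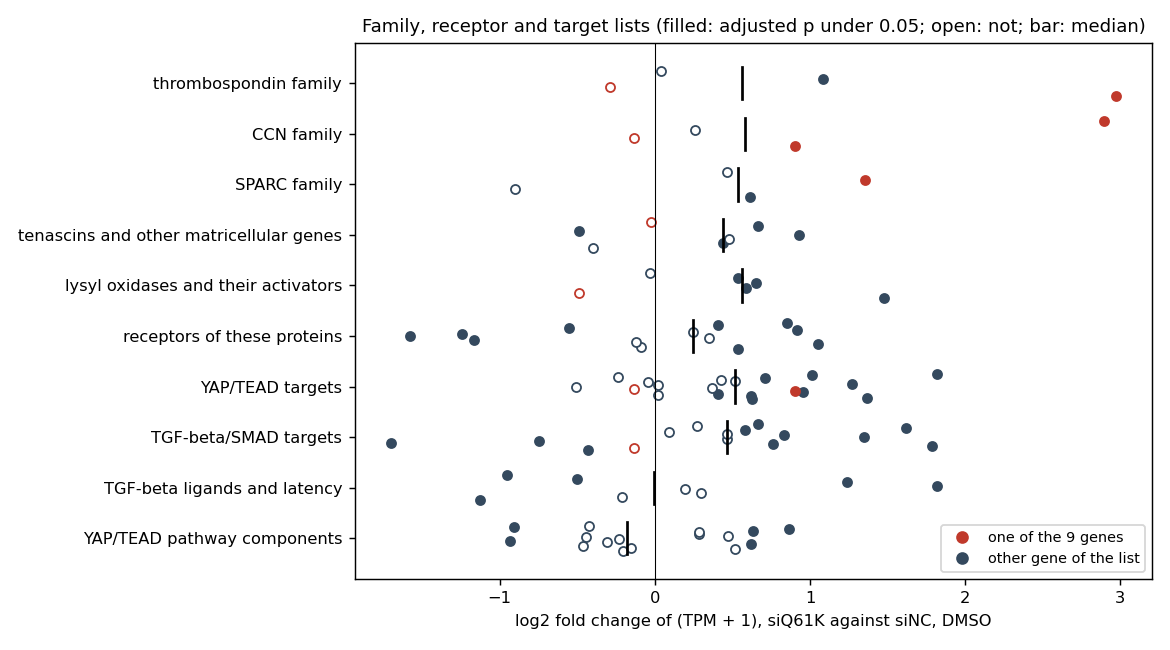
Log2 fold change of TPM + 1 (x axis) of each tested gene in the family and pathway lists, siQ61K against siNC with DMSO, filled where the limma adjusted p was under 0.05, with vertical bars for list medians and the 9 genes in red. The YAP/TEAD targets have a median of 0.52 with no called gene below 0, and the receptors have called genes on both sides of 0.

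The genes whose levels followed each member most closely are given as a description over the 12 libraries, which share 4 groups, so that any gene apart between groups in the same way scores highly. The 3 nearest to THBS1 were TPM1 (Pearson r = 0.997), NREP (0.993) and DYSF (0.992). TPM1, a tropomyosin of actin filaments, had 552, 517 and 577 TPM in siQ61K DMSO libraries, against 158, 173 and 165 TPM in siNC DMSO libraries. DYSF (dysferlin) also headed the list for CCN5 (0.991), with TUFT1 (0.991) and IL32 (0.989). CCN1 lay nearest to TP53I3 (0.980), GALNS (0.978) and SLC38A10 (0.974), and SPARC nearest to XXYLT1 (0.989), LAMP1 (0.988) and CTSA (0.988). LOX lay nearest to IGF2BP2 (0.990), UBXN7 (0.987) and PTPRJ (0.985), and THBS2 nearest to KHDC4 (0.980), MICAL2 (0.977) and FKBP5 (0.970). TNC was nearest to TBC1D5 (0.973), TSR1 (0.965) and EXOSC10 (0.964). The lowest values were those of FN1, with AC026401.3 (0.938), TCP1 (0.930) and KRT15 (0.918), and CCN2, with FAM120A (0.931), DNER (0.926) and YWHAZ (0.893).

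**Figure D4:**
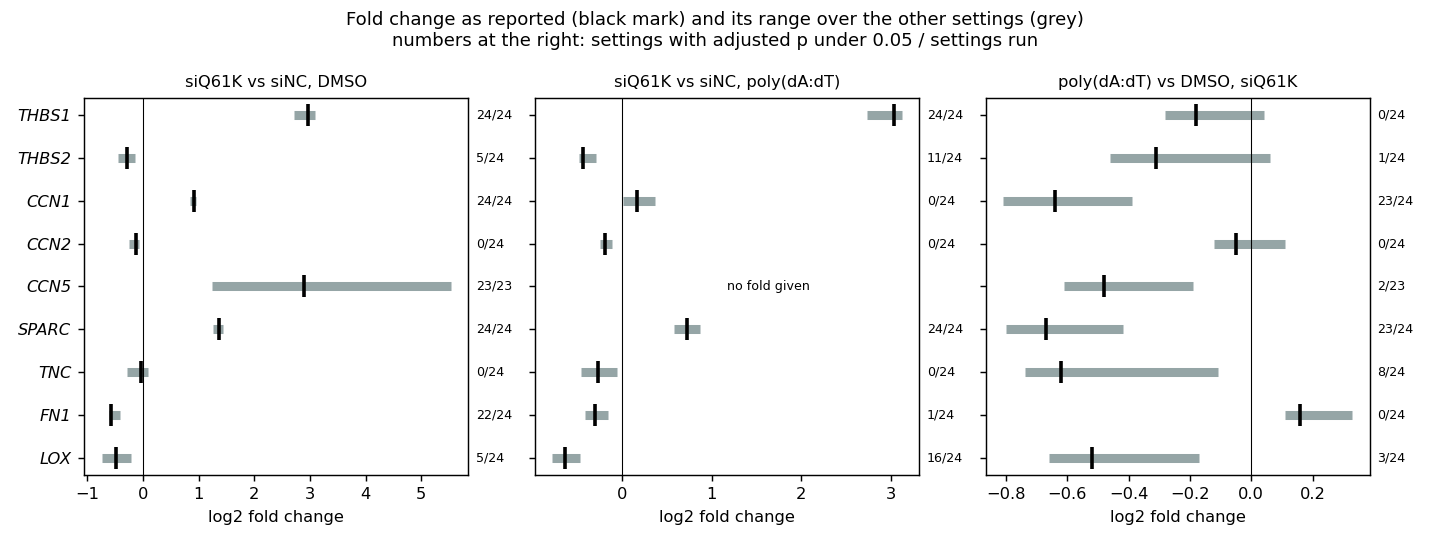
Log2 fold change of TPM + 1 (x axis) of each gene as reported (black marks) and its range over the other processing settings (grey bars) in 3 comparisons, with the number of settings that gave a call at the right of each row. THBS1 keeps to 2.71 to 3.09 in DMSO, and the grey bars of the poly(dA:dT) response of THBS1, THBS2 and CCN2 in siQ61K cells cross 0.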

How the data were processed

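RNA-seq of 12 HT1080 libraries was analysed from 1 deposited table of TPM per gene symbol. The authors deposited TPM, per the labels, and per the submitters' processing notes they used Salmon 0.8.0 and hg19. The labels' protocols give total RNA and a NEBNext Ultra kit, with an annotation not given in the sources used here. The table's columns HT-NC, HT-NC_PD, HT-SI and HT-SI_PD were read as siNC and siQ61K, without and with poly(dA:dT), an inference from names. Depth is not kept in TPM and is unknown, which leaves no counting interval.

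Of 56227 entries, 984 shared 58 symbols and were left out. Tests covered the 14722 genes that reached 1 TPM in 3 or more libraries. Their log2(TPM + 1) entered limma 3.58.1 under R 4.3.3, with eBayes using a trend, all 4 groups in 1 fit (8 residual degrees of freedom) and Benjamini-Hochberg adjustment. Exact permutation tests used scipy 1.17.1. The fit was tested on simulated data with independent noise in each gene and library, which holds no shift shared across a library. Means are with SD over 3 libraries, and intervals are 95% intervals of the model. GC content and length came from the longest GENCODE 29 transcript for 14533 genes (98.72%), and the correction used a lowess span of 0.3. Promoters were RefSeq entries, matched for 7 of the 9 genes.

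The genes, the lists around them and the rule for named genes (all 9, the 3 nearest by correlation with a mean of at least 5 TPM, up to 2 highest and 2 lowest called per list in DMSO, and up to 2 per list for the difference of responses) were chosen with earlier results of these data known. Alternatives were no filter or a filter at a mean of 5 TPM, pseudocounts of 0.1 and 5, quantile or median-of-ratios scaling, no variance trend, only the groups compared, GC and length correction, a replicate block, each library left out, and 2 libraries left out together, the last added after seeing the data.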

Additional observations from a re-analysis of the deposited data

Results flagged for a closer look

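The poly(dA:dT) response of CCN1 differed between siQ61K and siNC cells by -0.73 on the log2 scale and that of SPARC by -0.64, both past the limma threshold for the difference itself, as described above. Groups of 3 libraries were not tested for a single outlying library.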

How the results depend on the processing

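Over 24 alternatives the 42 fold changes of the 9 genes gave 998 values, of which 874 kept direction and call, 67 lost a call, 17 gained one and 40 changed sign. The knockdown calls of THBS1, SPARC, CCN5 and CCN1 (DMSO) held in each setting run, except that CCN5 was not tested with a mean of at least 5 TPM. Called genes among the 9 with poly(dA:dT) in both arms numbered 3 without a filter, 3 without a variance trend and 3 to 5 without single libraries. For the poly(dA:dT) response in siQ61K cells 0 were called with both siQ61K libraries named above left out. That choice was made after seeing the data and shrinks the called falls by construction. For the difference of responses 0 were called without a filter, without a variance trend, with the GC and length correction (also with the replicate block) and with both libraries left out, and 0 to 2 without single libraries. Sign changes were all among uncalled values. In siQ61K cells the GC and length correction, with or without the block, gave responses of 0.04 for THBS1, 0.06 for THBS2 and 0.11 for CCN2. CCN2 was also 0.11 with both libraries out and with median-of-ratios scaling. In siNC cells SPARC was 0.04 with median-of-ratios scaling and 0.08 after the correction, and FN1 0.13. The difference of responses after the correction was 0.16 for THBS2, 0.12 for CCN2 and 0.23 for TNC. With both libraries out it was 0.07, 0.11 and 0.11, and 0.20 for LOX. Median-of-ratios scaling gave 0.04 for CCN2, and quantile normalization 0.01. Without single libraries the knockdown value of TNC in DMSO was -0.25 to 0.10, and the response of CCN2 -0.12 to 0.06 in siQ61K and -0.11 to 0.08 in siNC cells. In siNC cells SPARC was -0.13 to 0.03 and FN1 -0.24 to 0.01. The differences of responses were -0.06 to 0.19 for THBS1, -0.30 to 0.01 for THBS2, -0.13 to 0.05 for CCN2 and -0.29 to 0.09 for LOX. The cause was not tested. Over all genes, calls of the poly(dA:dT) response in siQ61K cells numbered 3712, and 1264 after the correction, 2207 in a fit to only the groups compared, 137 with both libraries out and 1628 to 4608 without single libraries. For the difference they numbered 2662, and 301 after the correction, 550 with both libraries out, 1026 without a filter and 980 to 3886 without single libraries. Same-numbered libraries of different groups correlated in their deviations at -0.26 to 0.233. Differently numbered libraries were not compared in this way, so these values cannot decide whether same-numbered libraries shared a culture or batch. With a replicate block 4436 genes were called for knockdown in DMSO, and among the 9 LOX gained a call there (adjusted p = 0.0406) and in its poly(dA:dT) response in siQ61K cells (adjusted p = 0.0383).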
